A study of Mus musculus with 6 samples.

Results

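Slc17a6, Slc17a7, Slc17a8, Slc1a1, Slc1a2, Slc1a3 and Glul, the genes that load, clear and recycle glutamate, were followed through the nuclei of the mouse prelimbic cortex (PL). They were taken by symbol, 7 of the 32285 genes in the count matrices, and each of the 7 had reads in all 6 libraries. Glutamate is the main excitatory transmitter of the cortex. Vesicular transporters (VGLUT2, VGLUT1 and VGLUT3, encoded by Slc17a6, Slc17a7 and Slc17a8) fill synaptic vesicles with it, and transporters of the plasma membrane (EAAT3, GLT-1 and GLAST, encoded by Slc1a1, Slc1a2 and Slc1a3) take it up again after release. In astrocytes glutamine synthetase (Glul) turns glutamate into glutamine, which returns to neurons as the precursor of new transmitter. Slc17a7 is the vesicular gene of most cortical pyramidal neurons, Slc1a2 and Slc1a3 are known as astrocyte genes, and Slc1a1 as the neuronal uptake gene.

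The study asked how maternal running before weaning and isolation after it, both of which bear on the social dominance of male C57BL/6 mice, relate to expression in single PL cell types. Run males were reared by mothers that had a running wheel in the cage, Sed males by mothers in standard cages, and no offspring had a wheel. From weaning on, males lived in groups (GH) or alone (SI). Cohort 1 gave a RunGH and a SedGH library after tube tests, from males chosen by their top or bottom rank. Cohort 2 as named here gave RunGH, SedGH, RunSI and SedSI libraries, from a separate set of males raised like the study's second cohort but given no behavioural test. Each library pooled the PL of 3 males from different litters and no condition was repeated within a cohort, so the library was the unit. P-values refer to the spread between libraries, which edgeR, used to compare groups, estimates in part from other genes. As no condition was repeated, this spread also holds any change of the maternal difference with cohort or housing. The study's methods give adult mice, whereas the labels give an age of P21, the day of weaning. All groups carry the same genotype label.

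The values are counts of unique molecular identifiers (UMIs), that is of tagged RNA molecules, from nuclei and with introns. After filters 4997 to 9936 nuclei per library were kept, 42595 in all, with a median of 1637 to 6250 UMIs per nucleus. Nuclei were clustered without the members in each cohort, and the names used here stand for clusters that resemble a type by its marker genes. Of all pairs of libraries, 15 in number, each shared 5 to 22 nucleus barcodes, at most 0.428% of the smaller library. Cohort 1 stood apart: its background droplets, which hold free RNA and no nucleus, had medians of 1080 and 1208 UMIs against 82 to 302 in cohort 2, or 19.3% of a median nucleus against 4.28 to 7.68%. Endothelial-like nuclei were found only in cohort 1 and layer 6b-like nuclei only in cohort 2. Levels are given as CPM, that is scaled to a common total of UMIs per cell type and library, as lowest, median and highest of the 6 libraries, beside the level in background droplets. Counts from the 3′ end differ in capture between genes, so levels are compared between cell types and not between genes, and a gene's share of several genes' UMIs is likewise read only from type to type.

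In mm10 (GENCODE vM21), Slc17a6 lies at chr7:51622006-51671119 on the plus strand, Slc17a7 at chr7:45163949-45176142 (plus), Slc17a8 at chr10:89574020-89621253 (minus), Slc1a1 at chr19:28835049-28913960 (plus), Slc1a2 at chr2:102658659-102790784 (plus), Slc1a3 at chr15:8634124-8710764 (minus) and Glul at chr1:153899944-153909723 (plus). The reads counted for each could fall anywhere within these gene bodies, exons and introns alike. Promoters of 3 members are shown as examples of genes that differ between the cell types below, Slc17a7 between pyramidal and inhibitory neurons and Slc1a3 and Glul between astrocytes and neurons. Each is the 250 bases before the RefSeq start in GRCm38.p6, read 5′ to 3′ on the strand of the gene, with GC boxes (GGGCGG, or CCGCCC on the other strand) in capitals.
Slc17a7, chr7:45163671-45163920, plus strand: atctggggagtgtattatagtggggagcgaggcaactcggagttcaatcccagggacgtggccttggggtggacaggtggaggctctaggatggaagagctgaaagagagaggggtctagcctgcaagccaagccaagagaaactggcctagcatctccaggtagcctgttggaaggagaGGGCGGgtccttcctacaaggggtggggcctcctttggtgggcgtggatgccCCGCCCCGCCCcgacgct
Slc1a3, chr15:8710808-8711057, minus strand: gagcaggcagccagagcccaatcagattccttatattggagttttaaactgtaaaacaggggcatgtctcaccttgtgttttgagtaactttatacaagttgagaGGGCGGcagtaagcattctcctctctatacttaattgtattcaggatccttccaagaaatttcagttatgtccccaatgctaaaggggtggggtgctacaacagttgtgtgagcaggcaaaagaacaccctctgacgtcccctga
Glul, chr1:153899679-153899928, plus strand: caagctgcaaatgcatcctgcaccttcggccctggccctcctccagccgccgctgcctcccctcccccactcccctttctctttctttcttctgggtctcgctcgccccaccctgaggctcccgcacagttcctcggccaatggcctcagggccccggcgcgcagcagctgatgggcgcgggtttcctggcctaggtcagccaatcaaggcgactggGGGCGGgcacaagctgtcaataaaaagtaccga
The Slc17a7 window held 3 GC boxes and 61.2% G and C, the Slc1a3 window 1 box and 44.8%, and the Glul window 1 box and 64.8%. Among all 32851 promoter windows of the RefSeq table, 10756 (32.7%) held the motif, as did 5 of the 9 windows listed for the 7 members. The Glul window also overlaps an exon that GENCODE gives to a neighbouring gene. For Slc1a2 the RefSeq start lies inside the GENCODE gene, and its window is not printed.

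Slc17a7, the vesicular transporter gene of pyramidal neurons, was counted in each pyramidal type. Its level over all pyramidal nuclei was 139, 173, 232, 262, 229 and 276 CPM in RunGH and SedGH of cohort 1 and in RunGH, SedGH, RunSI and SedSI of cohort 2. By type it was 161, 274 and 341 CPM in deep-layer pyramidal nuclei, 150, 253 and 286 in layer 6 corticothalamic nuclei and 137, 237 and 302 in layer 2/3 nuclei. Layer 5 extratelencephalic nuclei, the output neurons of layer 5, had 137, 164 and 185 CPM, and could not be ranked against near-projecting nuclei, which were above them in 3 of 6 libraries (0.10 on the log2 scale, SD 0.19, n = 6, exact sign-flip test p = 0.312). No neighbours in the order of pyramidal types had ranges apart, but these ranges span both cohorts, between which the level shifted. Deep-layer nuclei were above corticothalamic ones in 6 of 6 libraries, but by 0.15 on the log2 scale (SD 0.062, n = 6, exact sign-flip test p = 0.031, adjusted p = 0.178). Deep-layer and extratelencephalic nuclei lay further apart, with mean log2 levels of 7.49 and 7.15 in cohort 1 and 8.22 and 7.44 in cohort 2.

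Inhibitory neurons, which release GABA, gave 33.7, 51.6 and 66.5 CPM of Slc17a7, a range wholly below that of the pyramidal nuclei. Parvalbumin (PV) interneurons had 44.0, 51.8 and 63.0 CPM. Oligodendrocytes, their precursors and astrocytes lay between the pyramidal types and the interneurons in mean log2 level. Extratelencephalic nuclei were above oligodendrocytes in 4 of 6 libraries (0.53 on the log2 scale, SD 0.64, n = 6, exact sign-flip test p = 0.125). At least 1 Slc17a7 UMI was found in 38.1 to 68.3% of pyramidal nuclei (median 1696 to 6819 UMIs per nucleus) and in 6.57 to 26.4% of PV nuclei (1342 to 5610 UMIs). With nuclei of at least 1000 UMIs thinned to 1000 UMIs these shares were 13.7 to 24.9% and 3.12 to 6.02%. Shallower nuclei dropped out, which left 4277 of 4901 pyramidal and 160 of 213 PV nuclei in SedGH of cohort 2. Background droplets held 175 to 239 CPM of Slc17a7 in cohort 1 and 659 to 706 in cohort 2. The part of free RNA in the interneuron level was not tested. Subtracting the droplets' RNA, an alternative added after the levels were seen, lowered the mean PV level from 51.5 to 10.0 CPM, whereas the mean of corticothalamic nuclei went from 233 to 215 CPM.

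Slc17a6, the vesicular gene known from subcortical neurons, was counted among neurons mainly in layer 5 near-projecting and layer 6 corticothalamic nuclei. In near-projecting nuclei, which carry Tshz2 and Vwc2l, it reached 17.3, 19.9 and 37.3 CPM on 132 UMIs. Corticothalamic nuclei had 2.79, 4.23 and 5.602 CPM on 91 UMIs. No other neuronal type measured in all 6 libraries had a median above 0.910 CPM. Layer 6b nuclei, in cohort 2 only, had 0 UMIs in RunGH and SedGH and 6.23 and 7.10 CPM in RunSI and SedSI, on 5 UMIs. Background droplets held 2.04 to 8.55 CPM, so the near-projecting level lay above them in each library, whereas the corticothalamic level lay above them in both libraries of cohort 1 and below them in cohort 2. A Slc17a6 UMI was seen in 4.55 to 10.9% of near-projecting nuclei (median 1211 to 4772 UMIs) and in 0 to 0.833% of astrocyte nuclei (955 to 4306 UMIs). Oligodendrocyte precursors had no Slc17a6 UMI in any library.

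Slc17a8, the vesicular gene of scattered neurons that release glutamate beside another transmitter, had 2 high places. Near-projecting nuclei had 21.9, 40.0 and 54.4 CPM on 198 UMIs, and VIP interneurons had 15.8, 20.7 and 52.7 CPM on 79 UMIs. Background droplets held only 1.68 to 2.89 CPM. The 2 types could not be ranked: the near-projecting level was higher in 4 of 6 libraries, by 0.53 on the log2 scale (SD 0.81, n = 6, exact sign-flip test p = 0.219). All 79 VIP UMIs came from 1 cluster in each cohort with Ror1 and Col14a1 among its leading genes against other VIP nuclei, 368 nuclei in which the level was 30.8 to 111 CPM and 5.26 to 23.1% of nuclei had a UMI. The remaining 432 VIP nuclei had 0 UMIs, which allows a share of up to 0.694% of nuclei with one. This limits nuclei with a UMI at this depth, not nuclei that express the gene. These counts and shares carry counting error only.

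Of all vesicular transporter UMIs in near-projecting nuclei, Slc17a7 made up 68.9 to 76.7%, Slc17a6 7.31 to 14.9% and Slc17a8 9.64 to 21.9% over the 6 libraries. In VIP interneurons Slc17a8 made up 17.4 to 50%, on 263 vesicular UMIs, and most of the rest was Slc17a7. In corticothalamic nuclei Slc17a7 held 95.3 to 98.7%, and in layer 2/3 nuclei 98.9 to 99.8%. All 3 genes were also counted in other neurons, but with Slc17a6 and Slc17a8 at few UMIs: 91 and 14 in corticothalamic, 2 and 79 in VIP and 4 and 7 in PV nuclei, against 132 and 198 in near-projecting nuclei. Whether the same nuclei carried them was not examined.

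**Figure D1:**
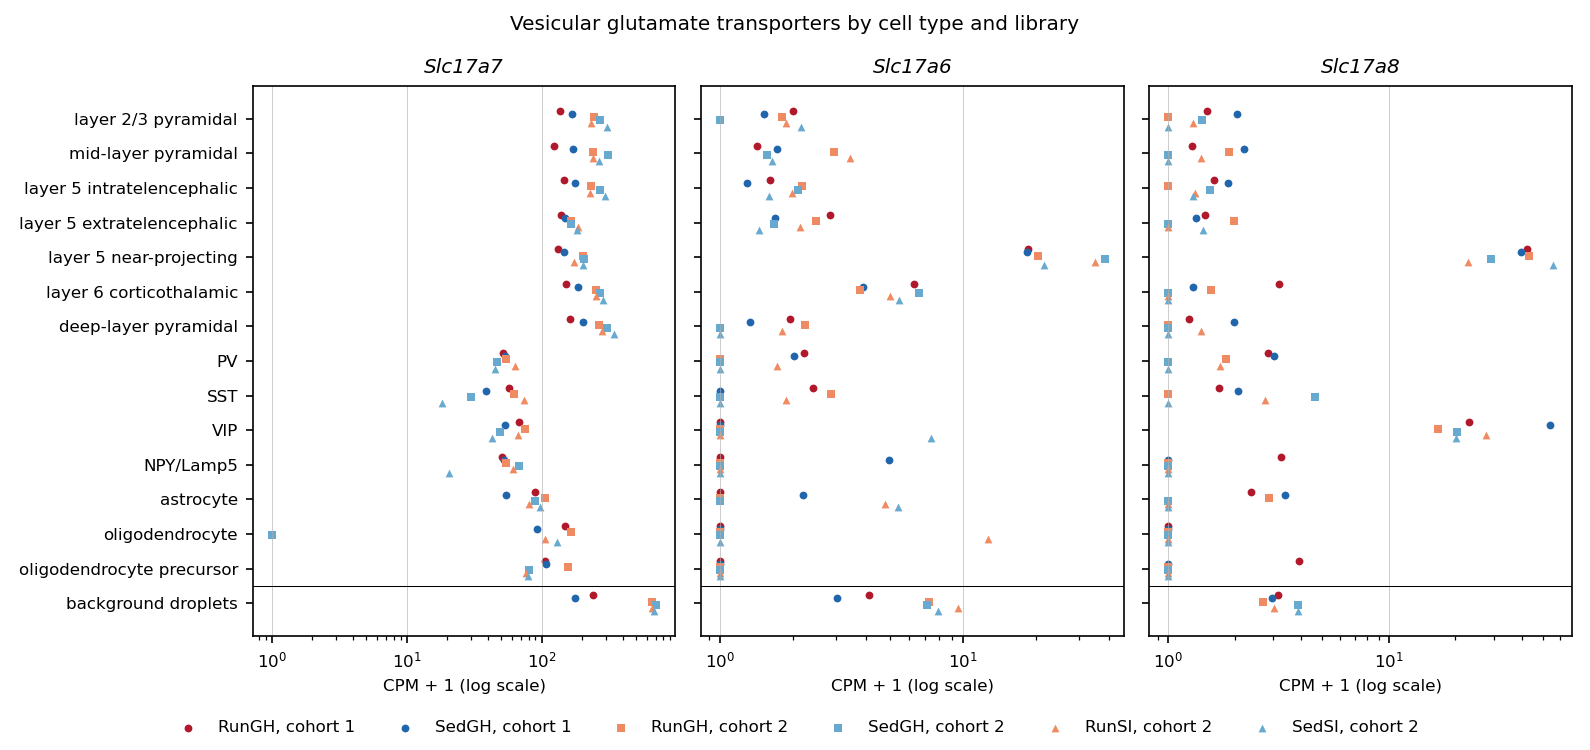
Levels of Slc17a7, Slc17a6 and Slc17a8 by cell type, 1 panel per gene. The x axis is CPM + 1 on a log scale, the rows are 14 cell types and the background droplets, and each point is a library, Run in red and Sed in blue, cohort 1 as circles, GH of cohort 2 as squares and SI as triangles. Slc17a7 is higher in mean log2 level in each pyramidal type than in any other cell type. Slc17a6 stands above the droplets' 2.04 to 8.55 CPM in near-projecting nuclei, and Slc17a8 stands above the droplets in near-projecting and VIP nuclei.

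Slc1a2, the main uptake transporter gene of astrocytes, was highest in astrocytes in each library and varied little there. The level was 6809, 7506, 7280, 7471, 6893 and 7355 CPM in library order, 7219 ± 298 (SD, n = 6), and 95.6 to 100% of astrocyte nuclei had a UMI. No library stood apart. Of the 14 types measured in all 6 libraries, the next in mean log2 level were near-projecting nuclei with 750, 762 and 880 CPM and corticothalamic nuclei with 645, 783 and 802. Oligodendrocytes ranged from 273 to 2470 CPM, the latter on 23 UMIs. They could not be ranked against corticothalamic nuclei (0.16 on the log2 scale, SD 1.14, n = 6, exact sign-flip test p = 0.719). In cohort 2 alone they came ahead of near-projecting nuclei. Layer 6b nuclei, found in the 4 libraries of cohort 2, had 956 to 1328 CPM, above the near-projecting nuclei of each. Vascular leptomeningeal nuclei (4 libraries) had 517 to 1530 CPM and endothelial nuclei (the 2 libraries of cohort 1) 441 and 1474. Microglia, read in 5 libraries, had 767 to 3374 CPM, and the 12 astrocyte markers summed to 1727 to 5098 CPM in them, against 10775 to 12045 in astrocytes, 56.0 to 269 in near-projecting and 90.6 to 223 in corticothalamic nuclei. The part of other cells' RNA in the microglial level was not tested. Astrocytes were above near-projecting nuclei by 3.20 on the log2 scale (SD 0.089, n = 6, 6 of 6 libraries, exact sign-flip test p = 0.031, adjusted p = 0.178), and the ranges were far apart.

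Slc1a2 differed among pyramidal types, though not by layer alone, since the layer 5 types lay at both ends. Mid-layer nuclei had 382, 430 and 490 CPM, and layer 5 intratelencephalic nuclei 294, 364 and 428. Layer 2/3 nuclei lay below, with 167, 218 and 269 CPM, deep-layer nuclei had 133, 197 and 277, and extratelencephalic nuclei had 129, 153 and 189. The step from layer 5 intratelencephalic to layer 2/3 nuclei was 0.74 on the log2 scale (SD 0.15, n = 6), with ranges apart, while near-projecting and corticothalamic nuclei overlapped and were ordered alike in only 4 of 6 libraries. Background droplets held 550 to 739 CPM, and near-projecting nuclei and astrocytes were above the droplets of their own library in 6 of 6 cases, corticothalamic nuclei in 5. The other pyramidal types in this order were below.

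PV interneurons had the lowest Slc1a2 of the ordered types, 37.5, 81.0 and 119 CPM. Subtraction of the droplets' RNA lowered their mean from 80.1 to 10.9 CPM and left that of near-projecting nuclei at 808 CPM, against 788 before. Corticothalamic nuclei likewise stayed at 755 CPM, against 745.

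Slc1a3, the other astrocyte uptake gene, was at 2078, 2464 and 2875 CPM in astrocytes. Among the 14 ordered types they were followed by oligodendrocyte precursors with 227, 317 and 641 CPM. The difference was 2.84 on the log2 scale (SD 0.47, n = 6, 6 of 6 libraries, ranges apart). Vascular leptomeningeal nuclei, counted in 4 libraries with 14 or more such nuclei, had 794 to 1484 CPM. Oligodendrocytes had 91.0, 275 and 407 CPM, above layer 2/3 nuclei by 2.82 on the log2 scale with ranges apart. Among neurons, mid-layer nuclei had 1.68, 5.22 and 12.01 CPM and PV interneurons 6.50, 10.9 and 17.7, against 69.0 to 92.4 CPM in background droplets. NPY/Lamp5 interneurons were higher in mean log2 level and could not be ranked against layer 2/3 nuclei. The latter were above them in 4 of 6 libraries (0.38 on the log2 scale, SD 1.48, n = 6, exact sign-flip test p = 0.688).

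Layer 2/3 nuclei were the highest pyramidal type for Slc1a3 in mean log2 level, with 21.5, 35.8 and 54.7 CPM. In cohort 1 near-projecting nuclei came close by this measure (4.25 against 4.65) and lay above them in SedGH. In cohort 2 the means were 3.78 and 5.41. Clustered again within each cohort, a step added after the levels were seen, layer 2/3 nuclei did not share Slc1a3 evenly. In cohort 1 a group of 756 nuclei led by Tshr, Ndst4 and Tll2 had 46.9 and 57.0 CPM, while the other groups had 7.69 to 28.2. In cohort 2 a group of 1303 nuclei led by 9530026P05Rik and Gm1604a, with Tll2 and Trhr next, had 102 to 134 CPM on 422 UMIs, and a group of 320 nuclei led by 9530026P05Rik and Ntsr1 had 73.0 to 122 CPM on 184 UMIs. The largest group of cohort 2, 1578 nuclei led by Igfn1, had 3.79 to 9.11 CPM. Of these, the group of 1303 nuclei alone lay above the background droplets in all its libraries, since droplets held 69.0 to 92.4 CPM in cohort 2 and 75.3 and 81.3 CPM in cohort 1. The astrocyte markers Gja1 and Aqp4 together were at 0 to 6.92 CPM in these 3 groups, against 96.6 to 180 CPM of Gja1 and 75.1 to 178 CPM of Aqp4 in astrocytes. The whole list of 12 astrocyte markers did not stand near 0. It summed to 1103 and 1125 CPM in the first group, 633 to 811 in the group of 1303 and 662 to 1148 in the group of 320, against 335 to 396 in the group led by Igfn1. Another group of cohort 2, of 1092 nuclei, had 855 to 1116 CPM of the list and 25.9 to 58.4 CPM of Slc1a3. Over all layer 2/3 nuclei it was 586 to 779 CPM, with 8 to 12 markers over 3 UMIs, against 843 and 945 CPM in droplets of cohort 1 and 440 to 595 in cohort 2. The sum is not particular to astrocytes: oligodendrocyte precursors had 3390 to 6467 CPM of it, with Gja1 at 0 to 19.5. The part of other cells' RNA in the Slc1a3 level was not tested. The groups were found in the same nuclei that are described, and so are given without a test.

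**Figure D2:**
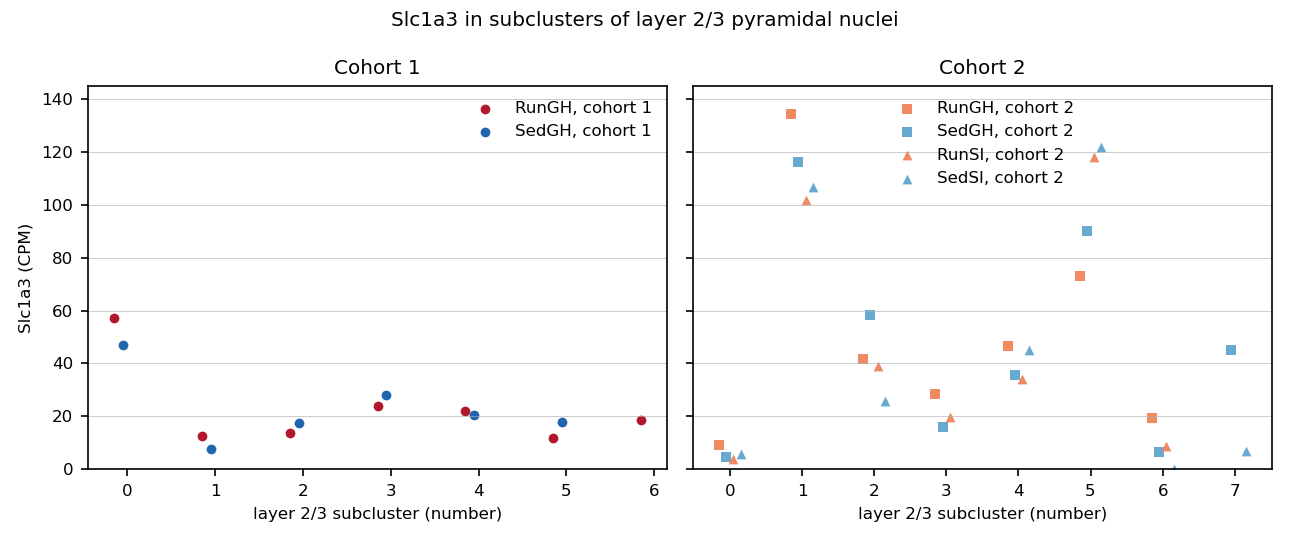
Slc1a3 level in CPM (linear axis) in the groups found when layer 2/3 nuclei were clustered again, cohort 1 and cohort 2 in separate panels, each point a library with the colours and shapes of the other plots. The x axis numbers the groups. Group 0 of cohort 1 (led by Tshr and Ndst4) lies at 46.9 to 57.0 CPM, and group 1 of cohort 2 (led by 9530026P05Rik and Gm1604a) at 102 to 134 CPM.

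The ratio of the astrocyte uptake genes differed between cell types. Astrocytes had 30.5 to 38.5 Slc1a3 UMIs per 100 Slc1a2 UMIs, and background droplets 9.97 to 13.7. Near-projecting nuclei had 1.06 to 4.75, corticothalamic nuclei 0.732 to 2.31 and mid-layer nuclei 0.363 to 2.96, none of them overlapping with astrocytes or droplets. Slc1a2 in these neurons was counted with a smaller share of Slc1a3 than in astrocytes or in free RNA. Layer 2/3 nuclei, at 8.0 to 32.7, and oligodendrocyte precursors, at 43.8 to 267, were higher. The 267 rests on 8 Slc1a3 and 3 Slc1a2 UMIs in SedGH of cohort 2, and the next highest library had 67.3.

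**Figure D3:**
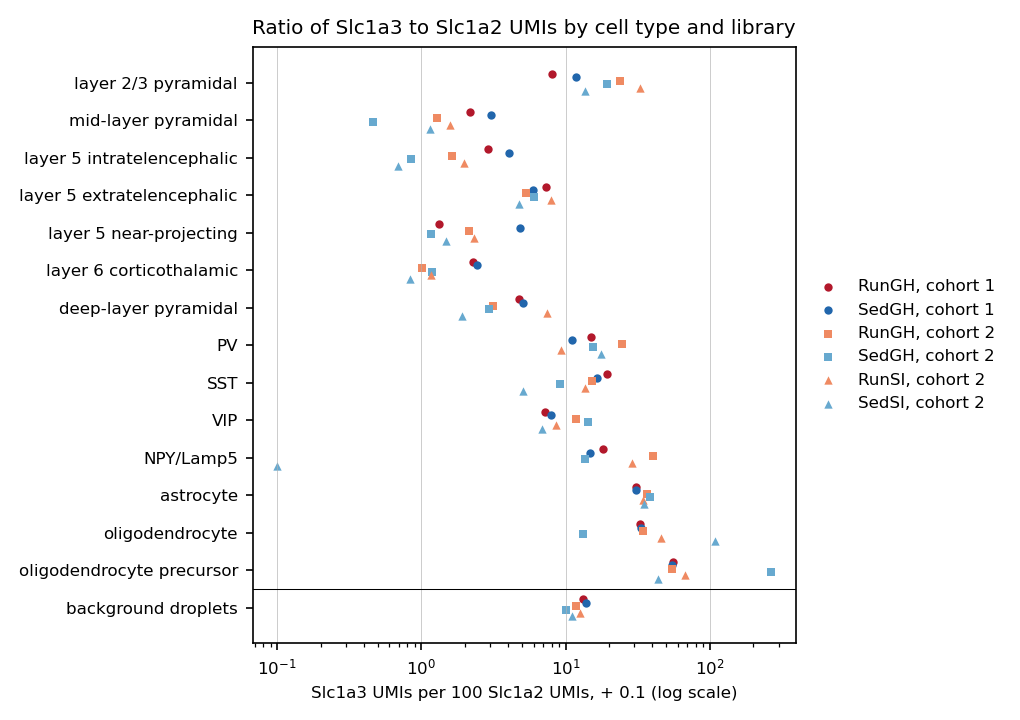
Slc1a3 UMIs per 100 Slc1a2 UMIs (log axis, 0.1 added) by cell type, each point a library. Astrocytes (30.5 to 38.5) and background droplets (9.97 to 13.7) lie to the right of near-projecting (1.06 to 4.75), corticothalamic (0.732 to 2.31) and mid-layer nuclei (0.363 to 2.96).

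Slc1a1, the uptake gene of neurons, was lowest in astrocytes among the 14 ordered types, at 0, 18.6 and 46.5 CPM. Oligodendrocyte precursors were highest with 163, 234 and 292 CPM on 183 UMIs. Extratelencephalic nuclei followed with 128, 138 and 172 CPM, and precursors were above them in 5 of 6 libraries (0.71 on the log2 scale, SD 0.41, n = 6, exact sign-flip test p = 0.0625), so this order was not firm. PV interneurons had 101, 130 and 153 CPM and SST interneurons 104, 111 and 142, both overlapping with extratelencephalic nuclei. Corticothalamic nuclei, at 103.0, 110 and 124 CPM, lay above layer 2/3 nuclei, at 74.5, 93.0 and 102.6, by 0.29 on the log2 scale (SD 0.12, n = 6) with ranges just apart. Near-projecting nuclei (47.4, 64.9 and 72.4 CPM) and VIP interneurons (48.2, 60.3 and 69.6 CPM) were the lowest neurons. Background droplets held 73.7 to 97.9 CPM. Extratelencephalic, PV, SST and corticothalamic nuclei lay wholly above that range and near-projecting and VIP nuclei wholly below it, while the other neuronal types of the order overlapped with it.

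Glul, the gene of glutamine synthetase, was highest in astrocytes in 6 of 6 libraries, at 333 and 385 CPM in RunGH and SedGH of cohort 1 and at 942, 755, 840 and 972 CPM in RunGH, SedGH, RunSI and SedSI of cohort 2. All cohort 2 libraries were above both cohort 1 libraries. A UMI was seen in 44.4 to 82.1% of astrocyte nuclei. Oligodendrocytes had 54.6, 119 and 339 CPM, below astrocytes by 2.18 on the log2 scale (SD 0.54, n = 6, 6 of 6 libraries), although the ranges overlapped slightly. Pyramidal nuclei had 8.17 to 17.2 CPM and inhibitory nuclei 9.99 to 29.3 CPM. Droplets held 49.5 and 31.5 CPM in cohort 1 and 143 to 201 in cohort 2.

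**Figure D4:**
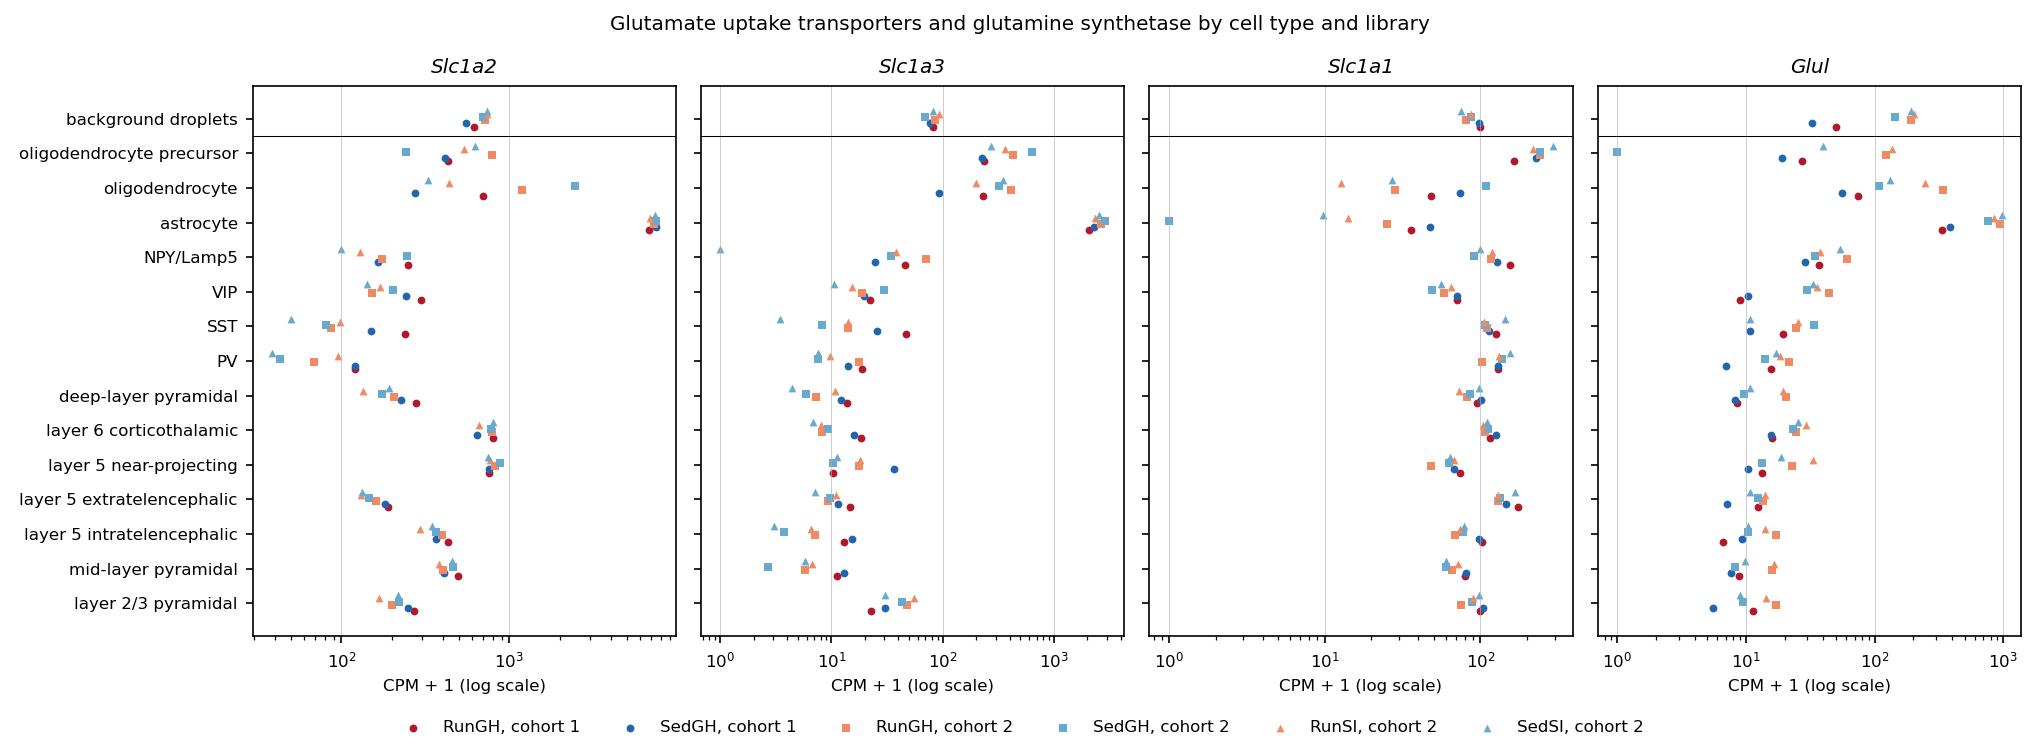
Levels of Slc1a2, Slc1a3, Slc1a1 and Glul by cell type, 1 panel per gene, on a log axis of CPM + 1. Rows, colours and shapes are those of the plot of the vesicular genes. Astrocytes are highest for Slc1a2, Slc1a3 and Glul and lowest for Slc1a1, and the circles of cohort 1 lie to the left for Glul in astrocytes (333 and 385 against 755 to 972 CPM).

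Over the 7 members, 91 pairs of neighbours in the order of 14 types were compared. The exact sign-flip test over 6 libraries cannot give a p below 0.031, which 16 pairs reached, and 0 passed after adjustment. With this floor, none could have passed unless most of the 91 pairs had reached it. Each pair at the floor took the same adjusted p of 0.178, which therefore does not tell large steps from small ones. Ranges were apart for 5 pairs, 2 each of Slc1a2 and Slc1a3 and 1 of Slc1a1. For the rare transcripts Slc17a6 and Slc17a8, the order below the types named above rests on a few UMIs per library and was not read. Doubling the UMI minimum left too few precursors and oligodendrocytes and moved the highest type of Slc1a1 to extratelencephalic nuclei and that of Slc17a8 to VIP interneurons.

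Among the genes most like each member, by Pearson's r of mean log2 CPM over the 14 types and among 10291 genes, were Adgrb2 (r = 0.955) and 9130024F11Rik (0.955) for Slc17a7. None are given for Slc17a6 and Slc17a8, whose order among most types rests on a few UMIs. Slc1a2 was most like Irak2 (0.931), Maob (0.926) and Alpk1 (0.901), and Slc1a3 most like Rfx4 (0.974), Chrdl1 (0.973) and Smo (0.973). Glul was nearest to Acsbg1 (0.986), Cbs (0.982) and Ezr (0.979), and Slc1a1 to Ecd (0.921), Vipas39 (0.906) and Gm48091 (0.888). Acsbg1 was also among the marker genes by which the clusters were named. The types share libraries, so these values are a description.

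The maternal comparison asks whether Run and Sed males differ, over 3 pairs of libraries (GH of both cohorts, and SI). By edgeR's quasi-likelihood test with adjustment over all genes, 0 of 7 members passed in pyramidal nuclei (0% of all 17951 genes passed), 0 of 6 tested in inhibitory nuclei (0.0777% of all genes), 0 of 5 in PV (0.0967%), 0 of 5 in astrocytes (0.0707%) and 0 of 4 in oligodendrocytes (0%). At an unadjusted p under 0.05 there were 2, 3, 1, 0 and 1 members, and DESeq2 called 0 of those it gave an adjusted p. Over all genes 1312, 771, 627, 468 and 107 reached an unadjusted p under 0.05 in these classes, of 17951, 12863, 10337, 8490 and 2649 tested. Where edgeR called 0 of all genes, in pyramidal nuclei and oligodendrocytes, DESeq2 called 50 and 0. The median member differed by -0.06 on the log2 scale in pyramidal, 0.36 in inhibitory, 0.52 in PV, -0.12 in astrocyte and 0.56 in oligodendrocyte nuclei, against medians of all genes of -0.0022, -0.0019, -0.0035, 0.013 and 0.025.

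In pyramidal nuclei Slc17a7 was lower in the Run library of each pair, 139 against 173, 232 against 262 and 229 against 276 CPM. The difference was -0.30 on the log2 scale (SE 0.075, unadjusted p = 0.00636, edgeR adjusted p = 0.657), and it remained below 0 with either free RNA profile subtracted (-0.41 and -0.36). Glul was higher in the Run library of each pair, 9.67 against 8.17, 17.1 against 10.53 and 17.2 against 11.3 CPM, by 0.47 (SE 0.13, unadjusted p = 0.0102, adjusted p = 0.657). With the droplets' RNA subtracted it was -0.14, and with the RNA of barcodes under 100 UMIs subtracted 0.64. Neither difference passed the threshold.

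In inhibitory nuclei Slc17a7 was higher in Run in each pair, 55.8 against 47.4, 59.6 against 42.6 and 66.5 against 33.7 CPM (log2 difference 0.53, SE 0.17, edgeR adjusted p = 0.660), and Slc1a3 likewise, 30.04 against 19.2, 20.9 against 12.9 and 13.6 against 5.38 CPM (0.81, SE 0.24, adjusted p = 0.628). The Sed values of Slc1a3 in cohort 2 rest on 10 UMIs in GH and 8 in SI. By counting error alone the ratio of the GH pair could be 0.829 to 3.54. All these Slc1a3 levels lay below those of background droplets. With either free RNA profile subtracted Slc1a3 was 1.501 (SE 0.42, edgeR adjusted p = 0.940) and 1.29 (SE 0.45, 0.935), and Slc17a7 was 0.51 (SE 0.59, 0.967) and 1.47 (SE 0.88, 0.935). Slc1a2 in inhibitory nuclei was 208 against 158, 98.3 against 101 and 110 against 68.7 CPM (0.36, SE 0.14, edgeR adjusted p = 0.754). The GH pair of cohort 2 thus went the other way. In PV interneurons Slc1a2 was 119 against 119, 67.2 against 42.3 and 94.9 against 37.5 CPM (0.52, SE 0.21, adjusted p = 0.789), so that cohort 1 showed no difference. In oligodendrocytes Slc1a2 was 698 against 273 CPM in cohort 1 and 433 against 325 in the SI pair, but 1181 against 2470 in the GH pair of cohort 2, whose Sed library had 10 nuclei and was not in the fit (1.01, SE 0.33, edgeR adjusted p = 0.944).

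Astrocytes had no member near the threshold. Slc1a2 was at 0.907, 0.974 and 0.937 of the Sed level in the Run libraries of the 3 pairs (log2 difference -0.12, SE 0.11, edgeR adjusted p = 0.982). Slc1a3 differed by -0.16 (SE 0.12, edgeR adjusted p = 0.973). The Glul ratio was 0.864, 1.25 and 0.865, on both sides of 1.

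Whether members passed depended on cohort 1 being whole in the fit. The difference of Slc17a7 in pyramidal nuclei moved little, from -0.30 to -0.31, so its call does not show a larger difference. That of Slc1a2 in PV nuclei went from 0.52 to 1.05. Without RunGH or without SedGH of cohort 1, the cohort 1 library left is fitted exactly and 1 residual degree of freedom remains. In pyramidal nuclei 3 members then passed: Slc17a7 (-0.31, edgeR adjusted p = 0.00102 without RunGH and 0.000609 without SedGH), Slc1a3 (0.40, 0.0389 and 0.0330) and Glul (0.56, 0.00277 and 0.00184). Slc17a7 passed in inhibitory nuclei (0.73, adjusted p = 0.00919 and 0.00880) and Slc1a2 in PV nuclei (1.05, adjusted p = 0.0200 and 0.00953). Many other genes passed with them: without RunGH and without SedGH of cohort 1, 15.8 and 16.4% of all genes in pyramidal nuclei, 3.07 and 3.03% in inhibitory nuclei and 1.04 and 1.23% in PV nuclei. At a Leiden resolution of 1.2, Slc1a2 passed in oligodendrocytes (1.40, edgeR adjusted p = 0.0475), where 0.0717% of all genes did.

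The housing comparison asks whether isolated males differ from group-housed ones, and its SI libraries are all of cohort 2. By edgeR, 0 of 7 members passed in pyramidal nuclei, 0 of 6 in inhibitory and 0 of 5 in PV nuclei (0% of all genes passed in each), 0 of 5 in astrocytes (0.0118%) and 0 of 4 in oligodendrocytes (0.151%). DESeq2 called 0 members, and an unadjusted p under 0.05 was reached by 0, 1, 0, 0 and 1 member. Over all genes of the first 3 classes DESeq2 called 0. By edgeR 166, 173, 177, 339 and 151 of all genes reached an unadjusted p under 0.05 in the 5 classes, of 17951, 12863, 10337, 8490 and 2649 tested. The members below this limit were Slc1a3 in inhibitory nuclei, with 20.9 and 12.9 CPM in GH and 13.6 and 5.38 in SI of cohort 2 (-0.75, SE 0.31, edgeR adjusted p = 1.00), and Slc1a2 in oligodendrocytes (-1.19, SE 0.41, edgeR adjusted p = 0.281). The Slc1a3 values of the Sed libraries, 12.9 and 5.38 CPM, rest on 10 and 8 UMIs. In astrocytes Slc1a2 differed by -0.01 (SE 0.13, edgeR adjusted p = 1.00).

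Whether the maternal difference varied was tested as an interaction on 23 member and class pairs each. For maternal by cohort, 0 passed edgeR's adjustment (2 at an unadjusted p under 0.05, smallest adjusted p = 0.107), while of all genes 12.2% passed in pyramidal, 3.2% in inhibitory, 1.38% in PV and 0.113% in astrocyte nuclei. For maternal by housing 0 members passed (1 at an unadjusted p under 0.05), as did 0% of all genes in each of these classes, where 60, 194, 302 and 403 genes reached an unadjusted p under 0.05. These fits leave 1 residual degree of freedom, and DESeq2 was not run on them.

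Between cohorts 9 differences of members passed, where 8.87 to 38.2% of all genes did, depending on the class. PV nuclei are part of the inhibitory class, so Slc1a2 counts in both. Nothing is read from the number of members that passed. Cohort 2 minus cohort 1 was read after the levels had been seen. Behavioural testing, choice of males by rank, depth, free RNA and preparation cannot be told apart in it. In astrocytes 1 of 5 members passed, Glul, where 29.8% of all genes did. Its level was 333 and 385 CPM in cohort 1 and 755 to 972 in cohort 2, a difference of 1.24 on the log2 scale (SE 0.17, edgeR adjusted p = 7.69e-08). Slc1a2 in the same nuclei differed by -0.02 (SE 0.13, edgeR adjusted p = 0.943) and Slc1a3 by 0.28 (SE 0.14, adjusted p = 0.138). Glul in background droplets moved the same way, from 31.5 and 49.5 to between 143 and 201 CPM. With the droplets' RNA subtracted the astrocyte difference was 1.01 (edgeR adjusted p = 0.000124), and with the RNA of barcodes under 100 UMIs 0.95 (adjusted p = 0.00265). Under the same subtractions Slc1a2 differed by -0.25 (edgeR adjusted p = 0.103) and -0.31 (adjusted p = 0.0458), the second past the threshold. Without the RunGH library of cohort 2 the Glul difference was 0.76 and did not pass (edgeR adjusted p = 0.0783). Over 18 settings it lay between 0.76 and 1.42 and passed in 17.

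In oligodendrocytes Glul was higher in cohort 2 by 2.19 (SE 0.57, edgeR adjusted p = 0.00327) and Slc1a3 by 1.33 (adjusted p = 0.0452), 2 of 4 members where 8.87% of all genes passed. With the droplets' RNA subtracted neither passed (Glul 1.96, edgeR adjusted p = 0.0977, and Slc1a3 1.12, adjusted p = 0.287). Glul also lost its call with no low-count filter (1.83, edgeR adjusted p = 0.0733). With the RNA of barcodes under 100 UMIs subtracted Glul held and Slc1a3 did not (1.23, edgeR adjusted p = 0.193). Slc1a3 lost its call in 7 alternatives in all (0.63 to 1.27, edgeR adjusted p = 0.0590 to 0.616). In inhibitory nuclei Glul was higher by 0.85 (adjusted p = 0.0236), a call that ended with either free RNA profile subtracted although the difference was larger (1.03, SE 0.46, edgeR adjusted p = 0.129, and 1.16, SE 0.40, adjusted p = 0.0629). It also ended without RunGH of cohort 2 (1.03, edgeR adjusted p = 0.139) and without SedGH of cohort 2 (0.76, 0.0831), with at least 1000 genes per nucleus (0.69, 0.0968) and by DESeq2 (0.89, adjusted p = 0.163). Glul counts were 16.5 and 9.99 CPM there in cohort 1 and 21.5 to 29.3 in cohort 2.

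In pyramidal nuclei 2 of 7 members passed, where 38.2% of all genes did. This class holds 769 nuclei of a cluster found only in cohort 1. Slc17a7 was higher in cohort 2 by 0.50 (SE 0.092, edgeR adjusted p = 0.00871), with no overlap between the 139 and 173 CPM of cohort 1 and the 229 to 276 of cohort 2. It held with either free RNA profile subtracted (0.47 and 0.58, adjusted p = 0.0188 and 0.0189), but not without RunGH of cohort 2 (0.48, edgeR adjusted p = 0.104), SedGH of cohort 2 (0.53, 0.0709) or RunSI (0.50, 0.0505). Slc17a7 in droplets was also higher in cohort 2. Slc1a1 was lower by 0.43 (SE 0.10, adjusted p = 0.0197), with 101 and 105 CPM against 83.3 to 94.97, and lost its call without any one of the cohort 2 libraries (-0.47 to -0.39, edgeR adjusted p = 0.0788 to 0.185). Slc1a3 differed by -0.25 in the main comparison (adjusted p = 0.382), whereas with free RNA subtracted it was higher in cohort 2 by 1.23 and 1.06 (edgeR adjusted p = 0.0449 and 0.0264), a change of direction.

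In inhibitory nuclei 3 of 6 members passed, where 35.3% of all genes did, and in PV nuclei 1 of 5, where 27.5% did. Slc1a2 fell in both, from 208 and 158 CPM to 68.7 to 110 in inhibitory nuclei (-1.05, SE 0.18, edgeR adjusted p = 0.000490) and from 119 in both libraries to 37.5 to 94.9 in PV nuclei (-1.22, SE 0.26, adjusted p = 0.00125). The sum of the 12 astrocyte markers fell with it in inhibitory nuclei, from 501 and 364 CPM to 267 to 316. In PV nuclei the sums overlapped, with 498 and 392 CPM against 323 to 400. Gja1 and Aqp4 alone, at a few CPM, overlapped between cohorts in inhibitory nuclei. Gja1 was at 2.45 and 1.11 CPM against 0 to 6.45, and Aqp4 at 3.34 and 1.85 against 0 to 3.22. The part of astrocyte markers in the Slc1a2 difference was not tested. The PV call ended with the droplets' RNA subtracted (-0.61, edgeR adjusted p = 0.750), with the RNA of barcodes under 100 UMIs (-0.82, 0.372) and with the UMI minimum doubled (-0.70, 0.0524). The inhibitory call ended with the first (-0.92, adjusted p = 0.0622) and held with the second (-0.90, 0.0435). It also ended without RunGH of cohort 2 (-0.66, edgeR adjusted p = 0.0658). Slc17a8 in inhibitory nuclei, 6.01 and 11.5 CPM against 2.90 to 4.84, was lower by 1.42 (SE 0.51, adjusted p = 0.0434) and lost its call with either subtraction and without any of 5 libraries, RunGH, SedGH, RunSI and SedSI of cohort 2 and SedGH of cohort 1. Over the 11 alternatives that ended it the difference was -1.55 to -1.11 (edgeR adjusted p = 0.0710 to 0.293).

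**Figure D5:**
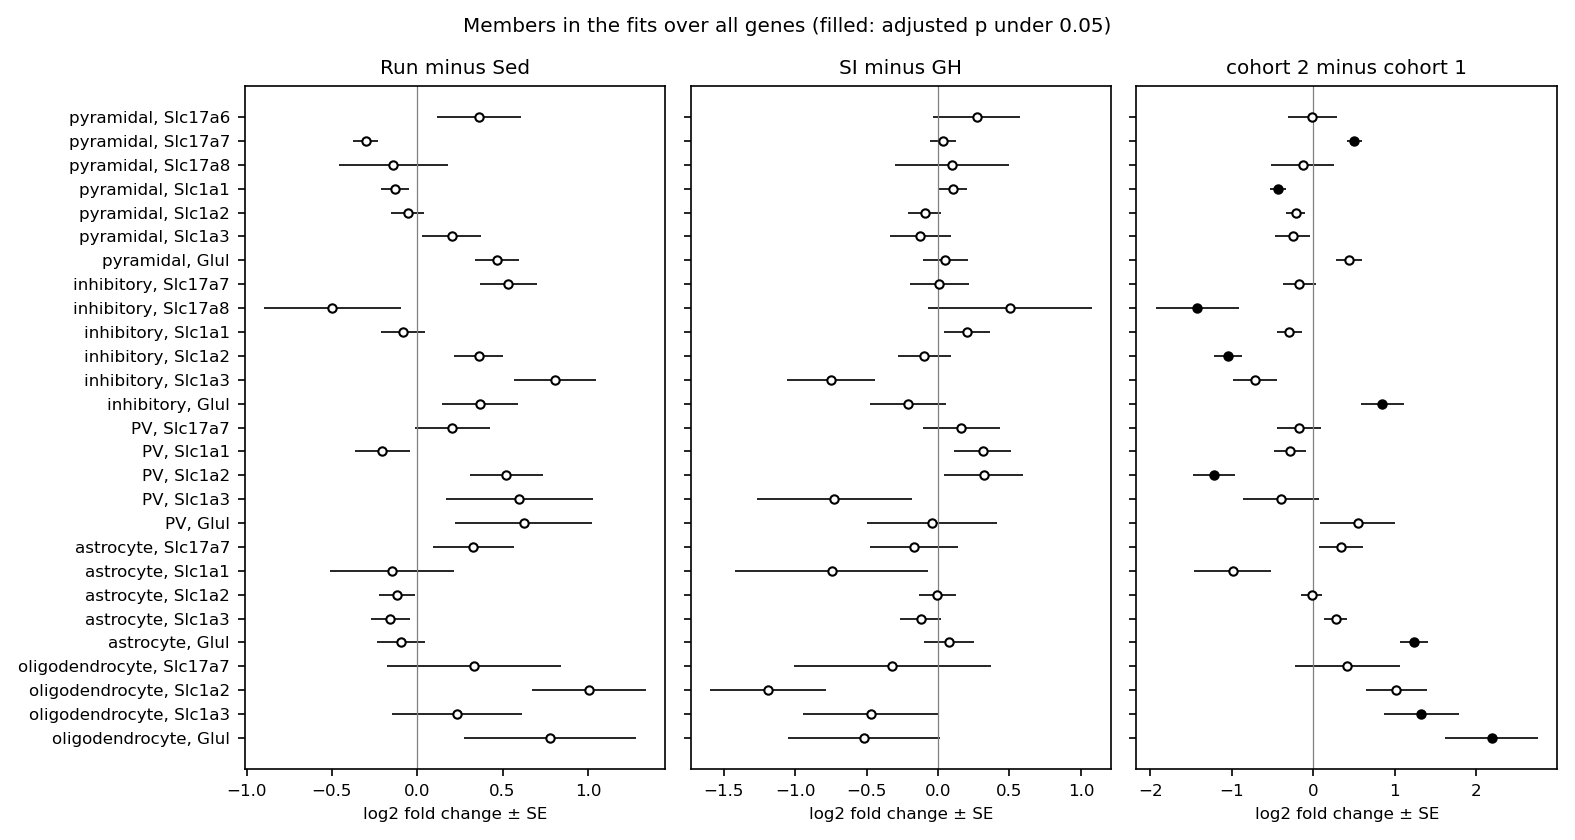
Log2 fold change and its SE of each tested member in 5 cell classes, in 3 panels for Run minus Sed, SI minus GH and cohort 2 minus cohort 1. Filled points have an edgeR adjusted p under 0.05. There are 0 in the first 2 panels and 9 in the third, Glul in astrocytes (1.24) among them. In the comparison of the third panel 8.87 to 38.2% of all genes passed, depending on the class.

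The other genes of glutamate and glutamine metabolism, a list of 28, were read in the same comparisons. Of them 25, 21, 19, 17 and 6 were tested in pyramidal, inhibitory, PV, astrocyte and oligodendrocyte nuclei. By edgeR 0 passed in the maternal and 0 in the housing comparison, with 1, 0, 0, 1 and 0 and then 0, 0, 0, 2 and 0 at an unadjusted p under 0.05, and DESeq2 called 0 of those with an adjusted p. Between cohorts 4 rose and 5 fell in pyramidal nuclei, 3 and 3 in inhibitory, 1 and 1 in PV, 2 and 4 in astrocytes and 2 and 0 in oligodendrocytes. Over all genes 38.2, 35.3, 27.5, 29.8 and 8.87% passed in these classes, so nothing is read from the counts of the list. DESeq2 called 5, 1, 1, 1 and 0 genes of the list between cohorts in these classes, and gave the 6 oligodendrocyte genes no adjusted p. The differences of single genes that follow are those of edgeR. Slc38a2, a transporter that carries glutamine into cells, rose in all 5 classes. Its level in pyramidal nuclei was 26.1, 73.4 and 80.0 CPM as lowest, median and highest, with a difference of 1.30 (SE 0.11, edgeR adjusted p = 0.00102), and in astrocytes the difference was 1.197 (SE 0.36, adjusted p = 0.00866).

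Slc38a1, another glutamine transporter, fell by 0.71 in pyramidal nuclei (SE 0.12, edgeR adjusted p = 0.00673), by 0.52 in inhibitory nuclei and by 1.08 in astrocytes. Slc25a12, a mitochondrial carrier of aspartate and glutamate, fell by 0.32 in pyramidal nuclei (edgeR adjusted p = 0.0394) and by 0.59 in astrocytes (adjusted p = 0.0405). DESeq2 called 1 gene of the list in astrocytes and 1 in inhibitory nuclei. At most 1 of the differences given for each of these classes was therefore called by both methods.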

How the data were processed

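The deposited files are UMI counts per gene and barcode, whole numbers that the authors made from 10x Chromium 3′ V3 libraries of PL nuclei with introns counted. The submitters' processing notes name Cell Ranger 6.0.0 and mm10. The matrices hold all barcodes, without cell calling or removal of doublets or free RNA, and cell types were rebuilt here. The labels describe RNA extraction with a column kit, whereas the study's methods describe isolated nuclei.

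Barcodes needed 500 to 4000 genes, at most 1% mitochondrial UMIs and a UMI minimum set per library (621 to 3156 UMIs), the 99th percentile of its largest barcodes divided by 10. Library totals were 19134955 to 188952936 UMIs. Each cohort was clustered apart in scanpy 1.11.5 without the 7 members and the 28 pathway genes, with Leiden at a resolution of 0.6 (3000 variable genes as Pearson residuals, theta of 100, reduced to 35 components and linked to 20 neighbours), and clusters were named from marker lists. Clusters of mixed markers (2057 nuclei) and unnamed ones (475) were left out of the types. A further pyramidal cluster of 769 nuclei, all of cohort 1 (564 RunGH and 205 SedGH), had no finer name and counts only in the pyramidal class. Scrublet marked 1.09 to 6.75% of nuclei per library, which were kept. Background droplets are barcodes of 30 to 2000 UMIs below that minimum, around the most frequent size.

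UMIs were summed per library and class, leaving out a class with under 20 nuclei in a library, and tested with edgeR 4.0.16 (quasi-likelihood, TMM, terms for maternal group, housing and cohort, 2 residual degrees of freedom, 1 in oligodendrocytes) over all genes with Benjamini-Hochberg adjustment at 0.05. DESeq2 1.42.0 was an alternative. Orders of cell types used log2 CPM with 0.5 added to the UMI count, and exact two-sided sign-flip tests over the 6 libraries. A type without a UMI of the gene therefore takes a value set by its depth. The fits were tested on simulated data. Alternatives changed the filters, clustering, normalization, pseudocount and free RNA, or left out a library. All members are named. Of the pathway list the 4 genes with the highest summed counts were to be named, of which Slc25a12, Slc38a1 and Slc38a2 are given. Some items are not reported here. The members and lists were chosen with earlier results of these data known. Added after seeing the data were the cohort comparison, the droplet profile for free RNA, the second clustering of layer 2/3 and the reading of single VIP clusters. Thinning drew 1000 UMIs from each nucleus that had at least as many, and floors and intervals cover counting error only. R 4.3.3 and Python 3.11.15 were used.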

Additional observations from a re-analysis of the deposited data

Results flagged for a closer look

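Members stood above the background droplets in 4 places outside the named cell types, in clusters that the marker lists did not name and that no comparison used. Slc1a1 was at 562 CPM in the 15 RunGH nuclei of a cluster of 24 in cohort 1 (32 UMIs, exact Poisson 95% interval 384 to 793) and at 574 CPM in 58 nuclei of a cluster of 61 in cohort 2 (75 UMIs, 451 to 719). Both clusters were led by genes that include Bcas1 and Enpp6, known from newly forming oligodendrocytes, and the highest droplet levels were 97.9 and 86.3 CPM. The level was above that of oligodendrocyte precursors, the highest named type, in both cases. Slc1a1 was at 111 CPM in 141 nuclei of a cluster of 144 in cohort 2, 129 of them from RunGH, with Ndst4, Abi3bp and Npsr1 among its leading genes (74 UMIs, 87.4 to 140), just above the droplets' 86.3 CPM. Slc17a6 was at 24.3 CPM in a cluster of 167 nuclei of cohort 2 with Cpa6, Adamts19 and Lgr5 (11 UMIs, 12.1 to 43.5), against 8.55 CPM in droplets. A library with under 10 nuclei in a cluster was left out, the other libraries were summed, and nothing was tested.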

How the results depend on the processing

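No paired analysis was possible because the labels' replicate numbers pair no libraries, each condition having 1 library per cohort. The Run and Sed pairs are matched by the cohort and housing terms already in the fit. Members passing in the maternal comparison rose from 0 to 3 in pyramidal, 1 in inhibitory and 1 in PV nuclei without a library of cohort 1 (range over the left-out libraries 0 to 3, 0 to 1 and 0 to 1), and from 0 to 1 in oligodendrocytes at a Leiden resolution of 1.2. All genes called rose with them, from 0 to 3046 in pyramidal, 10 to 416 in inhibitory and 10 to 137 in PV nuclei at most. The fits without a library have 1 residual degree of freedom. No alternative run gave a member call in the maternal comparison in astrocytes or in the housing comparison in any class. Members' log2 differences changed sign in 29 of 459 maternal, 49 of 461 housing and 21 of 437 cohort values. Slc1a3 in pyramidal nuclei, -0.25 between cohorts, became 1.23 and 1.06 with either free RNA profile subtracted. Members called between cohorts ranged over the alternatives from 0 to 4 in pyramidal and inhibitory, 0 to 2 in PV, 0 to 3 in astrocyte and 0 to 2 in oligodendrocyte nuclei. All genes called ranged from 2661 to 9286, 1992 to 5493, 948 to 3291, 706 to 2800 and 18 to 363 in these classes. The type of highest level stayed the same for 7 of 7 members, except with the UMI minimum doubled (5 of 7). Several alternatives gave no value in oligodendrocytes, where 1 library has 10 nuclei. DESeq2 gave no adjusted p to the oligodendrocyte members called by edgeR between cohorts. Depth limits the rare genes: Slc17a6 and Slc17a8 rest on 436 and 385 UMIs in all kept nuclei.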
